A study of Mus musculus with 4 samples.

Results

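B cell transcripts were followed on 4 Affymetrix mouse expression arrays of peritoneal macrophage cultures, which were prepared to study the H3K9 methyltransferase Setdb1. The 9 genes are Ms4a1, Cd79a, Cd79b, Ighm, Blk, Fcmr, Pou2af1, Fcrla and Cd72, of 18193 genes with a probe set of their own on the array. They were chosen by their higher signal in KO than in WT on these same arrays, so their KO over WT ratios are a description and carry no test. All probe sets whose only symbol in the platform annotation is one of these genes were taken, which gave 22 of 45037 probe sets that are not controls.

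Macrophages of C57BL6/J mice were elicited by thioglycollate, an irritant that draws monocytes into the peritoneal cavity, and the cells that attached during 4 h of culture were used. WT mice were +/+:Setdb1 fl/fl and KO mice were LysM Cre/+:Setdb1 fl/fl, so both genotypes carried the floxed Setdb1 alleles and the KO mice alone carried Cre. In the LysM Cre line, Cre is made from the lysozyme M gene of macrophages and neutrophils, which B cells do not use. Each genotype received vehicle or lipid A, the part of lipopolysaccharide that TLR4 senses, for 4 h, and the lipid A concentration is 10 ng/ml in the series design but 10 µg/ml in the sample labels. Each of the 4 conditions has 1 array, so no difference has a replicate check and no p-value is given. Setdb1 itself, by its only probe set above background, was 1.70-fold lower in KO under vehicle (589 against 346) and 1.35-fold lower under lipid A (521 against 386), and whether that probe set lies in the deleted part is given in none of the sources used here. Nor are the age and sex of the mice, or whether cells of several mice were pooled.

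B cells recognise antigen through a membrane antibody, the B cell receptor, whose IgM heavy chain (Ighm) is held by the signaling chains CD79A and CD79B. The peritoneal cavity is a known home of B cells, among them the self-renewing B-1 cells, and cells selected by attachment can keep some of them. Kinases such as BLK carry the receptor's signal, the coreceptor CD72 restrains it, and the coactivator encoded by Pou2af1 works with octamer-binding proteins in B cells. In RNA of a mixed culture, fewer cells of a type and less RNA per cell cannot be told apart.

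The values are linear probe set signals, and a signal below the median of its array was read as background. These medians were 65.1 (vehicle) and 74.8 (lipid A) for WT, and 84.2 (vehicle) and 75.8 (lipid A) for KO. A fold is given as measured when both signals reached their median. Where the WT signal did not, the fold is a lower bound against the WT median. For each gene the probe set that was brightest on average over the 4 arrays (log2 scale) is given unless another is named. As a technical yardstick, the log2 ratio of KO to WT was compared between probe sets of one gene that reached both medians, and its SD was 0.42 under vehicle (4413 genes) and 0.41 under lipid A (4260 genes). Counting probe sets that reached the median of only 1 array as well, these SDs were 0.92 and 1.05.

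All 9 genes reached the array median in both KO arrays, whereas 6 did so in WT vehicle and 4 in WT lipid A. Summed over the 9 genes, the WT signal was 871 with vehicle and 638 with lipid A, and the KO signal was 7846 and 8055. By the signals as measured, the median gene was 6.70-fold higher in KO under vehicle and 14.1-fold higher under lipid A. With signals below the median raised to it, these medians were 6.36-fold and 7.76-fold. Under vehicle all 9 genes were over 3-fold higher in KO as measured, 6 of them with the WT signal also above background, beside 4.14% of all genes, and under lipid A 7 of 9 were, beside 4.3%. The exceptions under lipid A were Blk and Fcrla. Over 3-fold higher as measured under both treatments were 7 of the 9 genes and 0.792% of all genes. Counted by bounds, with background signals raised to the median, 8 genes were over 3-fold higher under vehicle (0.797% of all genes), 6 under lipid A (0.868%) and 6 under both (0.352%), since the bounds of Cd79a did not reach 3-fold. None of the 9 was over 3-fold lower, where 2.41% of all genes were under vehicle and 3.89% under lipid A. Since the members were chosen on this contrast, nothing is read from these shares.

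**Figure D1:**
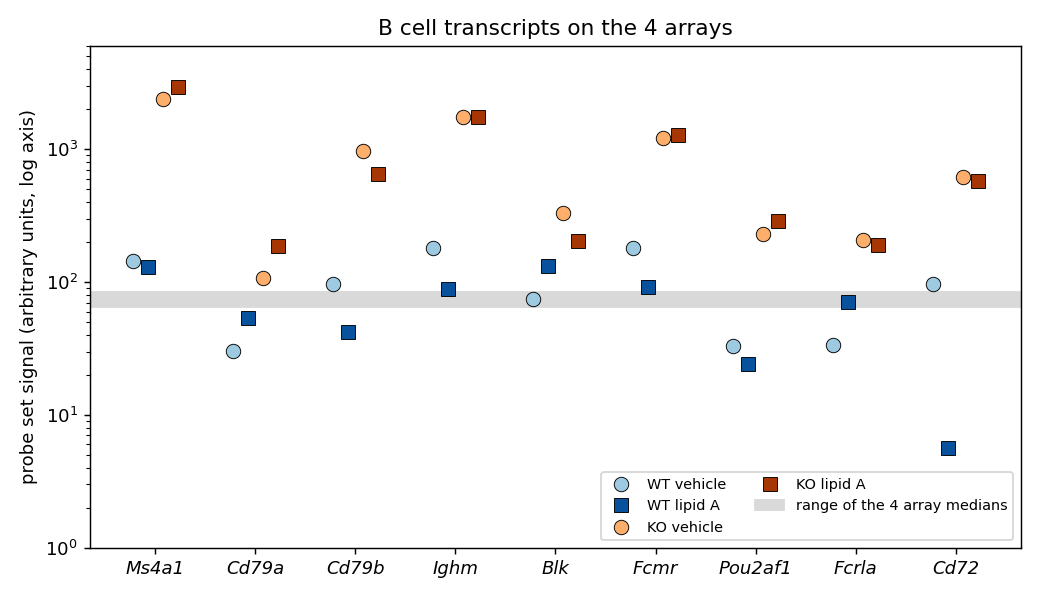
Probe set signal (log axis) of the 9 B cell genes on the 4 arrays, 1 point per array, WT in blue and KO in orange, vehicle as circles and lipid A as squares. The grey band spans the 4 array medians from 65.1 to 84.2. The genes were chosen by their higher signal in KO.

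Among the chains of the B cell receptor, Ighm is covered by 11 probe sets, and 2 of them carried a bright signal. The one used here gave 180.3 with vehicle and 88.7 with lipid A in WT, and 1760.3 and 1739 in KO. Ighm was thus 9.76-fold higher in KO under vehicle and 19.6-fold higher under lipid A, with all 4 signals at or above their medians. The other bright probe set gave 137.9, 42.1, 1826 and 1737 in the same order, or 13.2-fold under vehicle and at least 23.2-fold under lipid A. Both probe sets were high in both KO arrays and low in WT, and the second was background in WT lipid A. The remaining 9 probe sets with the symbol Ighm lay between 1.40 and 214, with 8 of their 36 values at or above the array median, and 6 of them were background on all 4 arrays. Of the 3 that were not, one was lower in KO under both treatments, with 213.5 with vehicle and 124.0 with lipid A in WT against 142.4 and 58.8 in KO. Another was at least 1.19-fold lower in KO under vehicle and at least 2.40-fold higher under lipid A, and the third was at least 3.15-fold higher under vehicle and 1.11-fold higher under lipid A. Antibody heavy chain clones share their constant part and differ in their variable part, and the sources used here do not say which part each of these probe sets reads.

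Cd79b, the partner of Cd79a in the signaling dimer, gave 97.4 with vehicle and 41.7 with lipid A in WT, and 976 and 654 in KO. It was 10.0-fold higher in KO under vehicle and at least 8.75-fold higher under lipid A. Cd79a gave 30.3 with vehicle and 53.5 with lipid A in WT, and 107 and 187 in KO. Both WT signals of Cd79a were background, so its difference is at least 1.64-fold under vehicle and at least 2.49-fold under lipid A. The bound for Cd79a is the lowest of the 9 genes under vehicle, and it comes from signals of which the higher is little above the array median.

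Promoter sequence of 250 bases before the transcript start was supplied for 5 of the 9 genes (Cd79a, Fcmr, Pou2af1, Fcrla and Cd72). The sequences are from RefSeq, build GRCm38.p6. Because these genes were higher together in KO, their windows were searched on both strands for letters bound by B cell or myeloid factors. The octamer ATGCAAAT, the partner motif of the Pou2af1 product, is in 1.60% of 32851 mouse windows of this length and in none of the 5. The palindromic EBF motif, read by the B lineage factor EBF, is in 0.779% of windows and in none of the 5. The E-box CAGGTG, read by E proteins, is in 17.2% of windows and in those of Cd79a and Fcrla. GAGGAAGT, a form of the motif of PU.1, a factor of both B cells and macrophages, is in 2.44% of windows and in that of Cd72. Each of the 3 windows with a match held 1 of the 4 motifs, so no matches overlapped. A match describes letters only. Just these exact letters were searched for, so a window without a match may still hold another form of a site. The windows of Cd79a and Cd72, a receptor chain and a coreceptor, are shown 5′ to 3′ on the strand of the gene, with the matched letters in capitals. That of Cd79a is chr7:24897247-24897496 on the plus strand, with the E-box letters from 154 to 149 bases before the start, and that of Cd72 is chr4:43454627-43454876 on the minus strand, with the PU.1 letters as their reverse complement from 49 to 42 bases before it.
Cd79a: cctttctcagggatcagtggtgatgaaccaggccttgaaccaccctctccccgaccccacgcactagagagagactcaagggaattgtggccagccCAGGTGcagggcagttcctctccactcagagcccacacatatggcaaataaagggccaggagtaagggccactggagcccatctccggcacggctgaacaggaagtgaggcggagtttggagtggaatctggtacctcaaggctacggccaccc
Cd72: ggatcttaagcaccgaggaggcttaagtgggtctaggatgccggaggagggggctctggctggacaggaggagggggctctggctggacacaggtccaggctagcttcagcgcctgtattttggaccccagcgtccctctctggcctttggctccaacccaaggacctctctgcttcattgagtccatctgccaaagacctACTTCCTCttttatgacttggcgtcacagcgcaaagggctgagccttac

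Among the surface proteins, Ms4a1, which encodes the B cell antigen CD20, gave 143 with vehicle and 130.3 with lipid A in WT, and 2399 and 2931 in KO. It was 16.7-fold higher in KO under vehicle and 22.5-fold higher under lipid A, with all 4 signals at or above their medians. A further probe set of Ms4a1 gave 134 with vehicle and 82.9 with lipid A in WT, and 861 and 439 in KO. By that probe set the difference was 6.42-fold and 5.29-fold. Between the 2 probe sets of Ms4a1 the log2 ratio of KO to WT thus differed by 1.38 under vehicle and by 2.09 under lipid A, more than the SD between probe sets of one gene.

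Fcmr, the receptor for the Fc part of IgM, gave 181.9 with vehicle and 91.2 with lipid A in WT, and 1218 and 1285 in KO. Its difference was 6.70-fold under vehicle and 14.1-fold under lipid A, and the larger ratio under lipid A came from a lower WT signal while the KO signals were 1.06-fold apart. Cd72, a lectin-like coreceptor with an inhibitory tail that macrophages can also make, gave 96.8 with vehicle and 5.64 with lipid A in WT, and 615 and 580.2 in KO. It was 6.36-fold higher in KO under vehicle and at least 7.76-fold higher under lipid A, where the WT signal was background. Fcrla, an intracellular Fc receptor-like protein of B cells, gave 33.7 with vehicle and 70.5 with lipid A in WT, and 207 and 189 in KO by the probe set used. Fcrla was higher in KO by at least 3.19-fold under vehicle and at least 2.53-fold under lipid A, and each of its other two probe sets reached the array median on 1 array of the 4.

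Blk, a Src family kinase downstream of the B cell receptor, gave 74.8 with vehicle and 132.7 with lipid A in WT, and 331 and 203 in KO. All 4 signals reached their medians, and the difference was 4.43-fold under vehicle and 1.53-fold under lipid A. Blk had the smallest ratio of the 9 genes as measured under lipid A, where its WT signal was higher and its KO signal lower than under vehicle. Pou2af1, which encodes the coactivator OCA-B, gave 32.8 with vehicle and 23.99 with lipid A in WT, and 232 and 287 in KO. With both WT signals at background, Pou2af1 was at least 3.56-fold higher in KO under vehicle and at least 3.83-fold higher under lipid A.

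**Figure D2:**
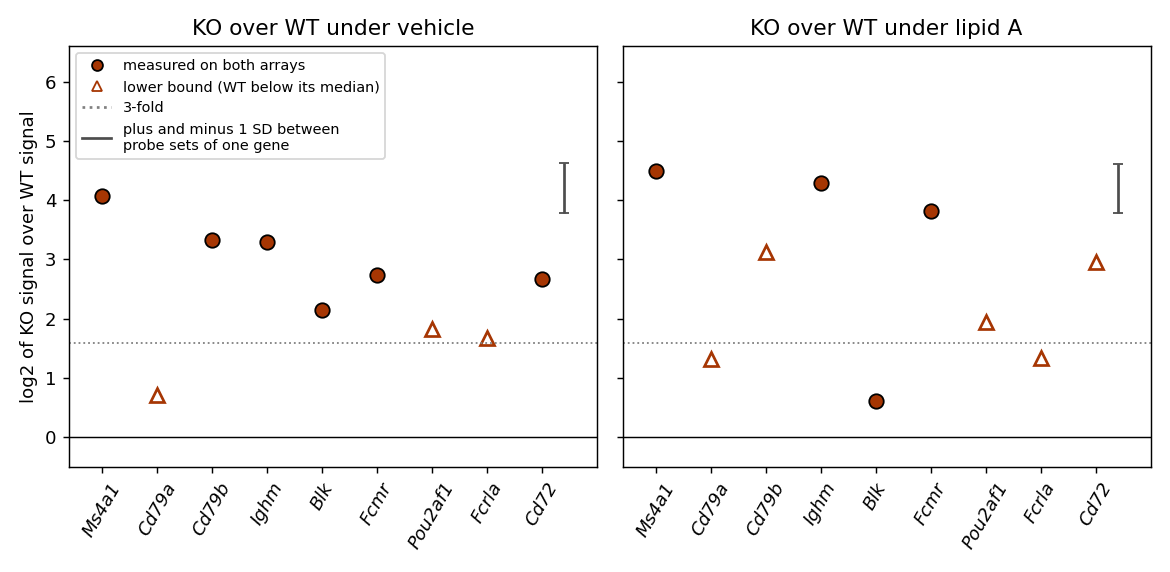
Log2 of KO signal over WT signal for the 9 genes, under vehicle (left) and lipid A (right). Filled circles are measured on both arrays, open triangles are lower bounds against the WT median, the dotted line marks 3-fold and the bar shows plus and minus 1 SD between probe sets of one gene (0.42 and 0.41). Blk (1.53-fold, measured) and the bounds of Cd79a and Fcrla lie below 3-fold under lipid A, and the bound of Cd79a does under vehicle.

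A constant share of B cells on each array would give every gene made only by B cells the same KO over WT ratio. The ratios of the 9 genes were therefore compared with each other. Under vehicle the log2 differences ran from 1.81 for Cd79a to 4.06 for Ms4a1, with an SD of 0.67 among genes. Under lipid A they ran from 0.61 for Blk to 6.69 for Cd72, with an SD of 1.86, but 5 of these 9 values, that of Cd72 included, divide by a WT signal at background and are given as bounds elsewhere. Set beside the SDs that admit such signals (0.92 and 1.05), the spread of the 9 genes was smaller under vehicle and larger under lipid A. Over only the genes measured on both arrays, the SD was 0.67 under vehicle (6 genes), above the 0.42 between probe sets of one gene, and between 0.49 and 0.73 with each gene left out in turn. Under lipid A it was 1.82 over 4 genes and rested on Blk. Without Blk, the log2 values of Ms4a1 (4.49), Ighm (4.29) and Fcmr (3.82) had an SD of 0.35, beside 0.41 between probe sets.

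The same comparison within a genotype used arrays where the B cell signals were high. Between KO lipid A and KO vehicle, the median log2 difference of the 9 genes was -0.017, with an SD of 0.46 (the median was 0.13 once array medians were set equal). Probe sets of one gene also differed with an SD of 0.46 in this comparison (4267 genes), and 6 of the 9 genes lay within that distance of 0. Ighm was 1.01-fold, Fcmr 1.06-fold, Cd72 1.06-fold and Fcrla 1.10-fold apart between the 2 KO arrays. The largest differences were those of Cd79a, which was 1.75-fold higher with lipid A, Blk, which was 1.64-fold lower, and Cd79b, which was 1.49-fold lower. By its further probe set, Ms4a1 was 1.96-fold lower with lipid A in KO, against 1.22-fold higher by the brighter one. Over all 9745 genes at or above both KO medians, the log2 difference had an SD of 0.88 and a median of -0.19. None of the 9 genes was over 2-fold higher or lower with lipid A in KO, beside 7.57% of all genes higher and 10.8% lower. With only probe sets whose name ends in a plain _at, the SD was 0.84 over 8 genes. This setting has no probe set for Cd72, leaves out the bright ones of Ighm, and takes for Fcrla one that was background on both KO arrays, with a log2 difference of 1.58.

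In WT, the log2 difference between lipid A and vehicle had a median of -0.45 and an SD of 1.58 over the 9 genes. Only Ms4a1, Ighm, Blk and Fcmr were measured on both WT arrays. Ms4a1 was 1.10-fold lower with lipid A, Ighm 2.03-fold lower, Fcmr 1.99-fold lower and Blk 1.78-fold higher. By the signals as measured 3 genes were over 2-fold lower in WT (Cd79b, Ighm and Cd72), beside 5.96% of all genes, and 0 were higher, beside 7.85%. As a bound, Cd79b was at least 1.30-fold lower and Cd72 at least 1.29-fold lower. The lipid A comparisons in WT and KO share no array with each other, but each shares its arrays with the genotype comparisons above.

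**Figure D3:**
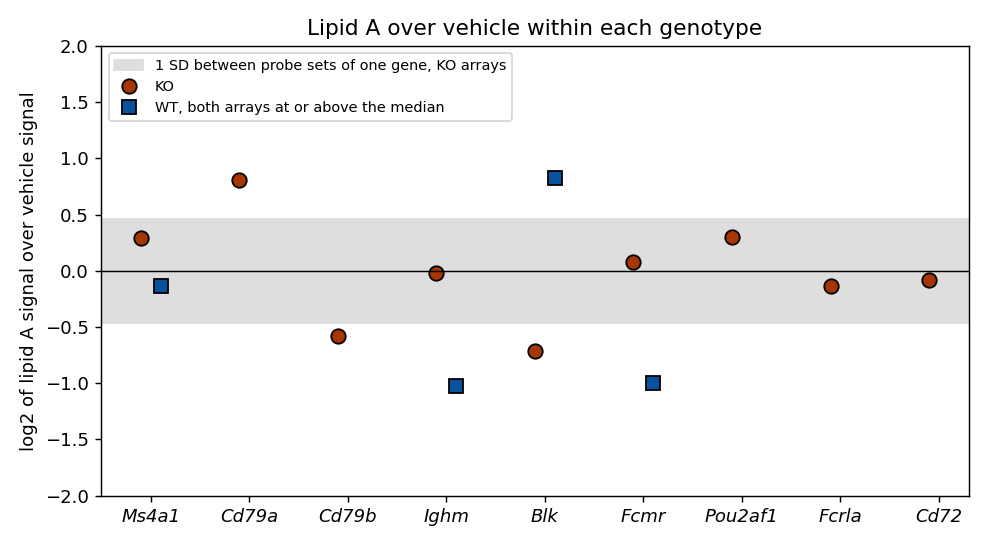
Log2 of lipid A signal over vehicle signal for the 9 genes in KO (circles) and, for the 4 genes measured on both WT arrays, in WT (squares). The grey band is plus and minus 1 SD between probe sets of one gene on the KO arrays (0.46), and 6 of 9 KO points lie inside it.

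Taking all 4 arrays at once, a constant share predicts that each log2 signal is the sum of a gene value and an array value. The residuals of this fit had an SD of 0.94 over the 9 genes, and of 0.74 after raising background signals to the median of their array. The same fit to probe sets of one gene, all at or above the median, left an SD of 0.30 over 3916 genes. Under the same filter only Ms4a1, Ighm, Blk and Fcmr remained of the 9 genes, and their residual SD was 0.83. Without Cd72 the value of 0.94 became 0.74, and without any other single gene it lay between 0.89 and 1.01. A further measure, added after the values were seen, was the KO signal minus the WT signal under lipid A over the same difference under vehicle, in which an equal nonspecific signal on both arrays cancels. This ratio had a median of 1.11 over the 9 genes and ran from 0.272 for Blk to 1.74 for Cd79a. For the 5 genes with a difference above 500 under both treatments it was 1.24 for Ms4a1, 1.15 for Fcmr, 1.11 for Cd72, 1.04 for Ighm and 0.697 for Cd79b. The SD of its log2 was 0.79 over the 9 genes, 0.45 without Blk and 0.33 over these 5 genes. Between the KO arrays the spread among genes, by the brightest probe sets, was thus close to that of probe sets of one gene. The 9 genes were chosen for high signals on these same KO arrays, so this closeness is a description and carries no test. Between KO and WT under vehicle, the spread was below the yardstick with background signals admitted (0.67 beside 0.92) and above it without them (0.67 beside 0.42). Under lipid A it was above in both cases (1.86 beside 1.05, and 1.82 beside 0.41). Among the genes measured on both lipid A arrays it was below the yardstick without Blk (0.35 over 3 genes). Of the 9 WT signals, 3 under vehicle and 5 under lipid A were below the median. How much of that spread comes from the low WT signals was not tested.

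Further B cell genes, listed with earlier results of these data known, cover surface receptors, transcription factors and signaling adaptors. Of 25 genes, 8 were over 3-fold higher in KO under vehicle and 1 lower, and 9 were higher under lipid A and 2 lower. By the signals as measured, the same 6 genes (Cxcr5, Tnfrsf13c, Fcrl1, Ly6d, Spib and Bank1) were higher under both treatments, and by bounds 4 of them were, without Cxcr5 and Fcrl1. The median log2 difference of the 25 genes was 0.64 under vehicle and 0.50 under lipid A, beside 0.13 and -0.0050 over all genes. Whether each of the 25 is made only by B cells in these cultures was not tested. Bank1, a scaffold protein of B cell receptor signaling, gave 62.3 with vehicle and 59.9 with lipid A in WT, and 619 and 579 in KO, or at least 9.51-fold and at least 7.74-fold higher. Spib, an Ets family transcription factor of B cells and plasmacytoid dendritic cells, was 5.44-fold and 3.82-fold higher, and Ly6d, a marker of early B cell commitment, 4.12-fold and 5.80-fold, each measured on all 4 arrays. Cxcr5, the receptor for the follicular chemokine CXCL13, was at least 2.94-fold and at least 2.16-fold higher, and Tnfrsf13c, the receptor for the survival factor BAFF, at least 3.60-fold and at least 3.19-fold.

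Of these 25 genes, 7 had signals above 500 on all 4 arrays, the lowest being 776 (Cd22, Cd37, Cd180, Blnk, Btk, Pik3ap1 and Stap1), a group formed after the values were seen. None of the 7 was over 3-fold different, and their median log2 difference was -0.22 under vehicle and -0.026 under lipid A. Their signals ran up to 11381, and which cells of the cultures gave them was not tested. Nothing about B cells is therefore read from the medians of the 7. The other 18 genes, whose highest signal was 631, had median log2 differences of 1.29 and 1.30. Among these 18, Fcer2a, the low-affinity IgE receptor CD23, went from 104 in WT to 2.93 in KO under vehicle, and from 35.3 in WT to 139 in KO under lipid A. Its difference thus had opposite signs under the 2 treatments, with 1 background signal in each comparison. Vpreb3 and Pou2f2 were over 3-fold lower in KO lipid A by the signals as measured, from 95.8 to 16.4 and from 89.9 to 16.7, each against a KO signal at background.

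**Figure D4:**
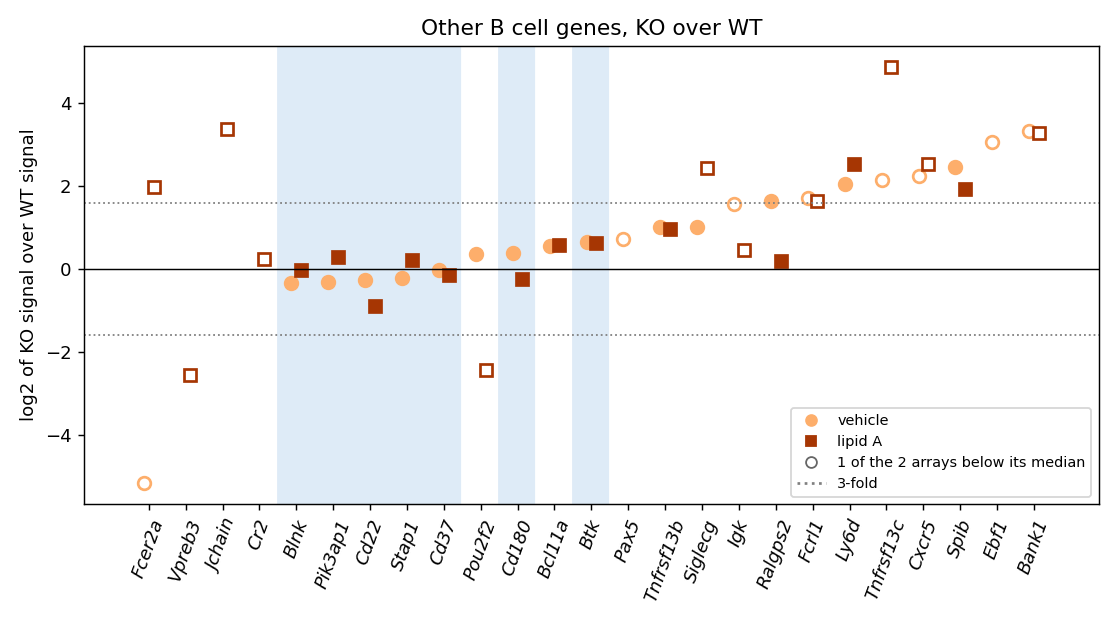
Log2 of KO signal over WT signal for the 25 other B cell genes under vehicle (circles) and lipid A (squares), ordered by the vehicle value, with points shown where at least 1 array reached its median. Open points have 1 array below its median, dotted lines mark 3-fold in each direction, blue shading marks the 7 genes above 500 on all arrays, and these 7 stay within 3-fold.

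Markers of particular B cell states and of other cells were counted in the same way, to be read beside the 4.14% (vehicle) and 4.3% (lipid A) of all genes that were over 3-fold higher. Of 8 plasma cell genes, 2 were over 3-fold higher in KO under vehicle and 3 under lipid A. Mzb1, a chaperone of antibody assembly that B-1 and marginal zone B cells also make, gave 95.6 with vehicle and 131 with lipid A in WT, and 892 and 842 in KO, or 9.33-fold and 6.43-fold higher. Tnfrsf17, the plasma cell receptor BCMA, was background on all 4 arrays, and Sdc1, which encodes CD138 and is not particular to plasma cells, gave 9028 in WT and 4502 in KO under vehicle, and 4436 in WT and 1512 in KO under lipid A. Of 7 genes listed for B-1 cells, 2 were over 3-fold higher as measured under each treatment, Cd5 and Zbtb32 with vehicle, and Zbtb32 and Ctla4 with lipid A. By bounds Zbtb32 was at least 3.11-fold and at least 1.99-fold higher, Cd5 at least 1.35-fold under vehicle and Ctla4 at least 1.05-fold under lipid A. Others on this list went the other way. Bhlhe41 was lower in KO under both treatments, with 162 with vehicle and 204 with lipid A in WT against 85.3 and 135 in KO. Plscr1 was lower in KO under vehicle only (1054 against 748), and Bcl2 under lipid A only (296 against 103). Cd5 was also lower in KO under lipid A, with 80.8 in WT against a background signal of 64.2 in KO. Of 8 MHC class II genes, which B cells and macrophages share, 2 were over 3-fold higher as measured under each treatment, H2-DMb2 and H2-Ob. H2-DMb2 was 4.15-fold and 5.13-fold higher, and by bounds H2-Ob was at least 3.11-fold and at least 1.72-fold higher. The median log2 difference of the 8 genes was 0.72 under vehicle and 0.68 under lipid A. H2-Ab1 gave 1576 in WT and 1620.2 in KO under vehicle, and 1101 and 1095 under lipid A.

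The 14 T and NK cell markers held 4 genes over 3-fold higher in KO under each treatment and 0 lower. In WT 2 of them reached the array median with vehicle and 5 with lipid A, and in KO 7 and 9 did. Their summed signal ran from 24245 to 37540 and was mostly Il7r, which gave 23265 to 35961. Cd3d, a chain of the T cell receptor complex, gave 60.9 with vehicle and 35.4 with lipid A in WT, and 287 and 151 in KO, or at least 4.401-fold and at least 2.02-fold higher in KO. Cd247, Cd6, Ncr1 and Eomes were below the median on all arrays. The median log2 difference of the 14 markers was 0.69 under vehicle and -0.21 under lipid A, background signals included. Over markers that reached the median on at least 1 array compared, it was 1.85 (7 markers) and 1.01 (10 markers). For the 25 other B cell genes this filter gave 0.86 (22 genes) and 0.59 (23 genes). The filter favours markers high in KO, where more of them reached the median. By the signals as measured, Cd3d and Thy1 were the genes over 3-fold higher under both treatments. By bounds neither was under lipid A, where Thy1 was at least 1.29-fold higher, against at least 3.03-fold under vehicle. The part of T cells in the result for genes that both lymphocytes can use, such as Fcmr, was not tested.

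Of 11 macrophage identity genes, none was over 3-fold different in either direction. Their median log2 difference was -0.14 under vehicle and -0.32 under lipid A, and their summed signal was 192239 with vehicle and 213332 with lipid A in WT, and 163787 and 184964 in KO. Lyz2, the lysozyme gene that drives Cre in this line, lay between 63122 and 79311. Of 9 dendritic cell markers 1 was higher and 1 lower under vehicle, and 2 higher and 1 lower under lipid A. Of 10 neutrophil markers 2 were higher and 3 lower under vehicle, and 0 higher and 1 lower under lipid A. Of 12 mast cell and eosinophil markers 2 and 0 were higher and none lower, with 9 below the median on all arrays. Of 12 mesothelium and fibroblast markers 1 was higher and 3 lower under vehicle and 0 changed by 3-fold under lipid A, but their median log2 difference was -0.81 and -0.71, with the collagen gene Col1a2 at -0.95 and -1.26 and the matrix gene Dcn at -2.01 and -1.52. The part of these cells in the result for the B cell genes was not tested. None of 5 genes used by most cells differed by 3-fold.

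The 10 genes whose pattern over the 4 arrays lay nearest to the mean of the 9 were sought among 9736 other genes at or above both KO medians. Likeness was the Euclidean distance between log2 signals, each gene centred on its own mean. Those nearest were Ak7, Cntn2, Wbp2nl, Hamp2, Ablim1, Ikzf3, Bank1, Hdac9, P2ry13 and Clec4b1, at distances from 0.141 to 0.58. The 9 genes themselves lay at 0.25 to 2.94 from their mean, with a median of 1.22. The 10 distances are the smallest of 9736, so they are not a like comparison with those of the 9 genes. The mean pattern was high in KO and low in WT by the choice of the 9 genes. The higher KO signals and low WT signals of the 10 therefore follow from the search and are only a description. Ikzf3, which encodes the lymphocyte transcription factor Aiolos, gave 41.9 with vehicle and 40.0 with lipid A in WT, and 357 and 308 in KO, or at least 5.48-fold and at least 4.11-fold higher in KO. All 10 had background signals on both WT arrays, and Ablim1, Ikzf3, Bank1 and Hdac9 were the ones above 200 on both KO arrays.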

How the data were processed

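RNA of peritoneal macrophages was measured on 1 Affymetrix mouse expression array for each of the 4 conditions. The values deposited by the authors are probe set intensity on a linear scale, and the sources used here name no software that made them. Leaving out the highest and the lowest 2% of probe sets, all 4 arrays had a mean of 500.004, from which a scaling of each array to a common mean was inferred. Detection calls are not used here. Of 45101 probe sets, 64 controls were left out. In the platform annotation, 34945 of the rest have 1 symbol, 932 several and 9160 none, and only the first were named.

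Signals were log2-transformed and compared as differences between arrays, with thresholds of 3-fold between genotypes and 2-fold for lipid A. A gene counted as changed only if the higher signal reached its array median. No test across genes was run and no p-value computed. The 9 genes and 11 further gene lists were chosen with earlier results of these data known. Other genes were named by rule (the largest differences of a list, and the 10 nearest patterns). The remaining list members are only counted. The steps were tested on simulated data. The alternatives were other scalings, a floor, an offset, other probe set choices, filters and thresholds. The number of arrays limits the precision. Python 3.11.15, numpy 2.4.6, pandas 2.3.3, SciPy 1.17.1 and matplotlib 3.10.9 were used.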

Additional observations from a re-analysis of the deposited data

Results flagged for a closer look

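Signals outside the comparisons came from probe sets with several gene symbols, which were given no gene name. Of 13 such probe sets that carry only immunoglobulin symbols, 3 reached the median on all 4 arrays, and each names the same 5 symbols of the immunoglobulin kappa light chain locus. The brightest gave 553 with vehicle and 596 with lipid A in WT, and 9110 and 9664 in KO, so that it was 16.5-fold higher in KO under vehicle and 16.2-fold higher under lipid A. The next gave 440.2, 364, 7496 and 6444 in the same order, or 17.0-fold and 17.7-fold. The third gave 174, 282, 2787 and 2913, or 16.04-fold and 10.3-fold. Of the 9 genes, Ms4a1 had the ratios nearest to these under vehicle, with values of 16.7-fold and 22.5-fold. These probe sets read related sequences and are not independent of each other. Igk, one of the 25 other B cell genes, has a probe set of its own that was much dimmer. It gave 55.6 with vehicle and 64.6 with lipid A in WT, both background, and 165 and 88.2 in KO. By bounds Igk was at least 2.54-fold and at least 1.18-fold higher.

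Blk went in opposite directions with lipid A in the 2 genotypes, with a log2 difference of 0.83 in WT and -0.71 in KO and all 4 signals at or above their medians. With 1 array per condition, this difference was not tested.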

How the results depend on the processing

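No paired analysis was possible because each condition has 1 array, and no array could be left out for the same reason. The median KO over WT difference of the 9 genes stayed above 0 under all 7 alternative settings, between 2.37 and 3.02 on the log2 scale under vehicle and between 2.96 and 4.05 under lipid A. A value was read as moved when it shifted by more than the SD between probe sets of one gene, or, for counts, by over 1.5 times. Raising signals below the array median to it moved the lipid A median of the 9 genes to 2.96, their SD under lipid A to 1.41 and their SD for lipid A over vehicle in WT to 0.60. That last SD, added after the data were seen, was also 1.03 with 16 added to each signal, 2.01 by the median probe set, 3.05 by probe sets with a plain name and 0.88 over genes measured on both arrays. With plain names, which drop Cd72 and the bright probe sets of Ighm and take a dim one for Fcrla (-2.59) and another for Ighm (6.54), the SD under vehicle was 2.56 and the residual SD of the gene and array fit 1.46. By the median probe set, the median of the other B cell genes under lipid A was 0.95. Of the 22 probe sets, 12 were over 3-fold higher in KO under vehicle and 10 under lipid A, and with both arrays required to reach their median these were 8 and 4. Counted by bounds, a choice made after seeing the data, they were 11 and 8. No share over all probe sets is given beside these counts, and the genes were chosen on this contrast, so nothing is read from them. Of the values recomputed, these 11 moved and 80 did not. No detection calls were used, so signals near the median limit every fold against WT.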
